A study of Mus musculus with 4 samples.

Results

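The 46 genes described here encode the machinery of mitosis and of the G2/M transition of the cell cycle: the kinases and cyclins that start mitosis, the spindle checkpoint, the anaphase trigger, the chromosomal passenger complex, the kinetochore, the spindle and the cytokinesis apparatus. They were chosen by name from a table of 45777 mouse genes. All 46 were found in it, and all 46 passed the filter on low counts that left 14634 genes for testing. The smallest count of any of them in any library was 290.

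The cells were MG5, a microglial line that was derived, as background, from a p53-deficient mouse and whose genotype the labels give as WT. Every culture received medium taken from A1 cells, an astrocyte-like line, diluted with fresh DMEM. In 2 libraries, 6OHA replicates 1 and 3, cells were exposed for 6 h to 10 µM 6OHA, a compound that activates retinoid X receptors. The other 2 libraries, control replicates 1 and 2, came from untreated cells, with no word in the labels on a solvent. The design asks which transcripts differ after the compound. MG5 is a single line, and whether replicates were separate cultures is not stated, so each p-value reflects only library-to-library spread, which may be technical. Total counts ran from 31057950 to 42541641 per library. The microglial genes Csf1r and Itgam were at 2744 CPM or more and 1597 CPM or more in every library, where CPM is the count scaled to library size with TMM factors. These are 2 of 10 microglia markers, of which Cx3cr1 fell after 6OHA. The astrocyte genes Gfap and Aqp4, the neuronal genes Rbfox3 and Syt1 and the oligodendrocyte genes Mog and Olig2 had 0 counts in all 4 libraries, with a limit of 3 counts, or 0.0705 to 0.0966 CPM, that covers counting error only. They are the only 2 at 0 counts in lists of 8, 6 and 6 markers. Other markers of those lists were detected, at up to 17.0 CPM for astrocyte, 11.2 CPM for neuronal and 99.8 CPM for oligodendrocyte genes.

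As background, entry into mitosis is driven by CDK1 bound to A- and B-type cyclins, which CDC25 phosphatases switch on. The spindle checkpoint then holds the anaphase-promoting complex, through its activator CDC20, until every kinetochore is attached to the spindle. Most of these genes are transcribed late in the cell cycle, under the MuvB complex with B-MYB and FOXM1, and are low in resting cells. Their promoters commonly carry a cell cycle genes homology region (CHR), bound by MuvB, and CCAAT boxes, bound by NF-Y. In a bulk culture, fewer dividing cells and less RNA per dividing cell cannot be told apart.

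The promoters are shown first because this architecture is frequent among the genes, although not all of them carry it. RefSeq's windows on GRCm38.p6, the assembly that mm10 names, run from 250 bases before to 50 bases after a transcript start and were matched by gene ID for 38 of the 46 genes. The CHR core was searched as TTTGAA or TTCGAA and the CCAAT box as CCAAT, on both strands, so that TTCAAA and ATTGG are reverse-strand matches. Matches can overlap, both those of neighbouring CCAAT boxes and those of the different motifs. In Cdca8 the CHR core starting at 13 bases past the start shares its last base with a reverse-strand CCAAT match starting at 18. A CHR core stood in 29 of the 38 genes, or 76.3%, against 17.4% of the 10687 tested genes with a window and 21.7% of all 27025 genes with one. A CCAAT box stood in 29 of the 38 as well, against 42.9% of tested genes and 41.1% of all genes. Both motifs stood in the same window for 26 genes, or 68.4%, against 7.41% of tested genes. Among the 50 genes of a DNA replication and S phase list, 41 had a window, of which 7 held a CHR core and 25 a CCAAT box. A match is only a run of letters and shows no binding.

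**Figure D1:**
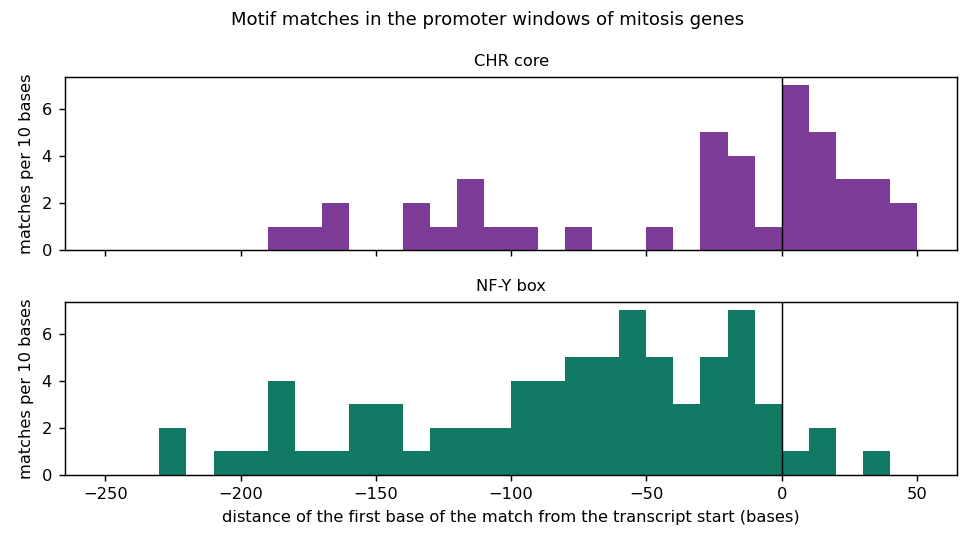
Position of each motif match (horizontal axis, bases from the transcript start; vertical axis, matches in each 10 bases) in the 41 promoter windows of 38 mitosis genes, 3 of which have more than 1 window. CHR cores (upper) lie around the start with a median of -14.5, and CCAAT boxes, labelled NF-Y box (lower), lie mostly before it with a median of -67.

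The 5 windows printed below belong to the gene with the highest level per length (Top2a), the genes with the largest positive and negative differences (Cenpa and Plk4), and a pair from the anaphase trigger (Ube2c and Espl1). Each runs 5′ to 3′ from 250 bases before the start through its first 30 bases, with CHR cores and CCAAT boxes of either strand in capitals.
Top2a, chr11:99024160-99024439, - strand: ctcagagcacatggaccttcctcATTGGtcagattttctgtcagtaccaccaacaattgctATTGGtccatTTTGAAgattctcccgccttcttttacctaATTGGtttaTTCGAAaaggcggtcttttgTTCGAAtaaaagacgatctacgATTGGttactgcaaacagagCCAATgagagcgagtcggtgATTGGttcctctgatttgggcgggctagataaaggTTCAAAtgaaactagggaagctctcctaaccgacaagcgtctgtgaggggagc
Ube2c, chr2:164769679-164769958, + strand: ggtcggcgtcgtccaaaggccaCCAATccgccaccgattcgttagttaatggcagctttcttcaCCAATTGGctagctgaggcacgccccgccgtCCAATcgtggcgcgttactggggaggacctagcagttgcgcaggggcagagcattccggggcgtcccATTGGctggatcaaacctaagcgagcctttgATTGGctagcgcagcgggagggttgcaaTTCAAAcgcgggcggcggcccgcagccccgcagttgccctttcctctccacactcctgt
Espl1, chr15:102296043-102296322, + strand: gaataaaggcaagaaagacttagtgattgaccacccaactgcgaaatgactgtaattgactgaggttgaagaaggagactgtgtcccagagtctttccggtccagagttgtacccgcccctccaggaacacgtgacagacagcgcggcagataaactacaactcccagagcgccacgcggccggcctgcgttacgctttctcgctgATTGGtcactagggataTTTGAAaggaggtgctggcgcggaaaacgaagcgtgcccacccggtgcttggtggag
Cenpa, chr5:30666636-30666915, + strand: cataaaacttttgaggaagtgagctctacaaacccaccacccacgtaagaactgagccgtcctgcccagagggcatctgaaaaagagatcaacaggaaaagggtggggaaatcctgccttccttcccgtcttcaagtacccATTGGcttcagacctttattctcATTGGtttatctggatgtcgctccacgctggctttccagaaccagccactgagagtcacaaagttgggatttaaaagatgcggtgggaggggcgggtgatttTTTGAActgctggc
Plk4, chr3:40799701-40799980, + strand: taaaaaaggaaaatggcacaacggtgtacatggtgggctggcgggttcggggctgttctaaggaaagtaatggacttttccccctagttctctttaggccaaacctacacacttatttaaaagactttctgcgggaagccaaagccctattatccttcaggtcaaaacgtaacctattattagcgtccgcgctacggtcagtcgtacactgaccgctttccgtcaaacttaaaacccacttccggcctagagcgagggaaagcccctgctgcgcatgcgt
Top2a held 4 CHR cores and 6 CCAAT boxes, with the CHR core nearest the start at -23. Espl1 held a single CHR core at -27 and a single CCAAT box at -44. Cenpa had its CHR core at 16 bases past the start and its CCAAT boxes at -109 and -86. Plk4, which encodes the kinase that starts centriole duplication, held neither motif in its window.

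The mitosis genes were well expressed in every library, treated or not. Levels that compare genes are the authors' TPM, which account for transcript length. The mean TPM over the 4 libraries ran from 9.67 for Cenpf to 148 for Top2a, with a median of 45.6 against 15.8 over all tested genes, and 45 of the 46 genes lay above that median. Top2a, which encodes the topoisomerase that untangles sister chromosomes, was at 147 and 145 TPM in 6OHA and 165 and 134 TPM in control. Its controls lay on either side of both treated libraries. The proliferation marker Mki67 behaved alike on this scale, at 109 and 104 TPM in 6OHA and 119 and 98.1 TPM in control. Cdc25b, Ube2c, Bub3 and Birc5 followed Top2a in the order, at means of 120, 120, 116 and 114 TPM, and these 4 did not differ from each other beyond the spread of their libraries. At the other end stood Kif4 at 16.8, Espl1 at 16.0 and Cenpf at 9.67 TPM. Within complexes whose subunits assemble together, the kinetochore partners Ndc80 and Nuf2 had means of 44.5 and 47.9 TPM, while the passenger genes Incenp, Aurkb, Cdca8 and Birc5 had means of 44.9, 50.8, 71.8 and 114 TPM.

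**Figure D2:**
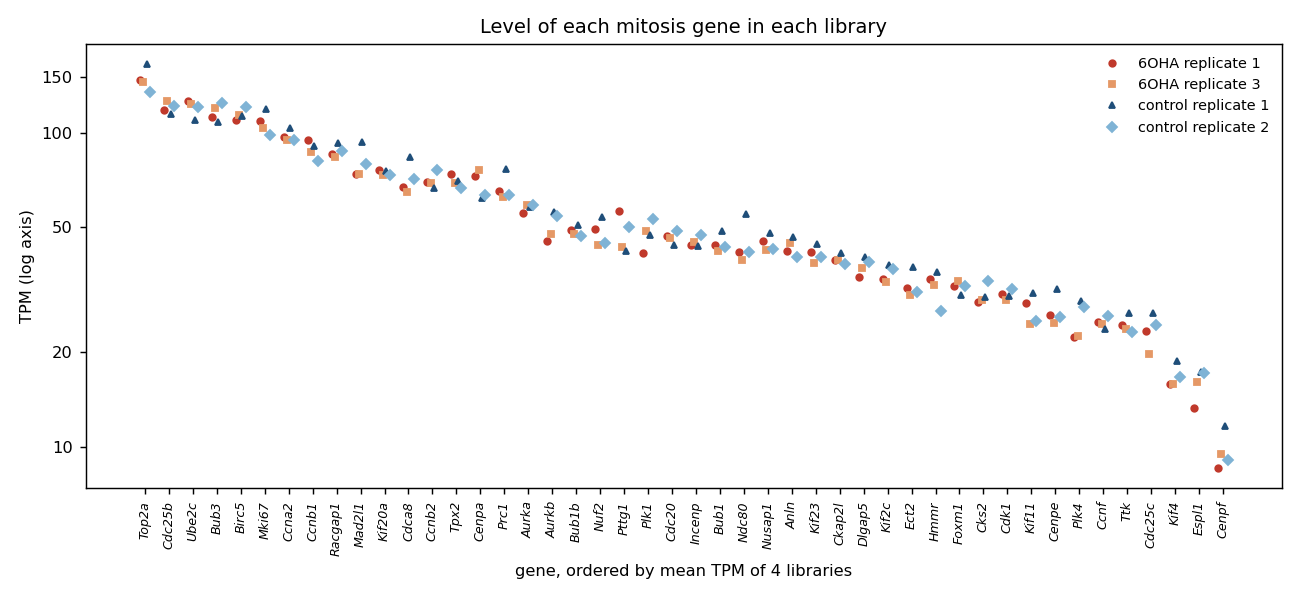
TPM (vertical log axis) of the 46 genes (horizontal axis, ordered by mean) in each of the 4 libraries, 1 symbol per library. The order runs from Top2a at a mean of 148 TPM to Cenpf at 9.67 TPM, and treated and untreated symbols intermix for most genes.

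None of the 46 genes passed the threshold in the main comparison, which with 2 libraries a group does not show that they were unchanged. By edgeR's quasi-likelihood test with Benjamini-Hochberg adjustment over all 14634 genes, 0 of the 46 passed an adjusted p under 0.05, where 2.02% of all tested genes did, 1.39% higher and 0.629% lower in 6OHA. DESeq2 and limma-voom also called 0 of the 46. An edgeR fit with an offset for GC content in each library called 2, Cenpa and Plk4, and 5.93% of its 13664 genes. At an unadjusted p under 0.05 in the main edgeR fit there were 3, namely Cenpa, Plk4 and Aurkb, against 10.9% of all tested genes. The lowest adjusted p was 0.157, for Plk4. Log2 fold changes, 6OHA minus control, ran from -0.34 for Plk4 to 0.31 for Cenpa, with 34 below 0 and 12 above. Their median was -0.05, beside -0.01 over all tested genes, of which 51.4% lay below 0. The treated libraries lay below both controls for 12 of the 46 genes, or 26.1%, where 20.1% of tested genes did so, and above both for 2, or 4.35%, where 18.7% of tested genes did so. In either direction this was 14 of the 46, against 38.8% of tested genes.

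The intervals of the main fit give a range for each difference that reflects library-to-library spread only, which may be technical. All 46 of the 95% confidence intervals of the fold change, each for a single gene and without adjustment, stayed inside 1.5-fold in both directions. The lowest lower bound was 0.677, for Plk4, and the highest upper bound was 1.45, for Cenpa. The half-width of the interval had a median of 0.23 on the log2 scale, from 0.20 to 0.34. In sum over the 46 genes, CPM was 3794 and 3716 in 6OHA and 3974 and 3751 in control. The groups overlapped on this sum, with control replicate 2 between the treated libraries and control replicate 1 above the rest.

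**Figure D3:**
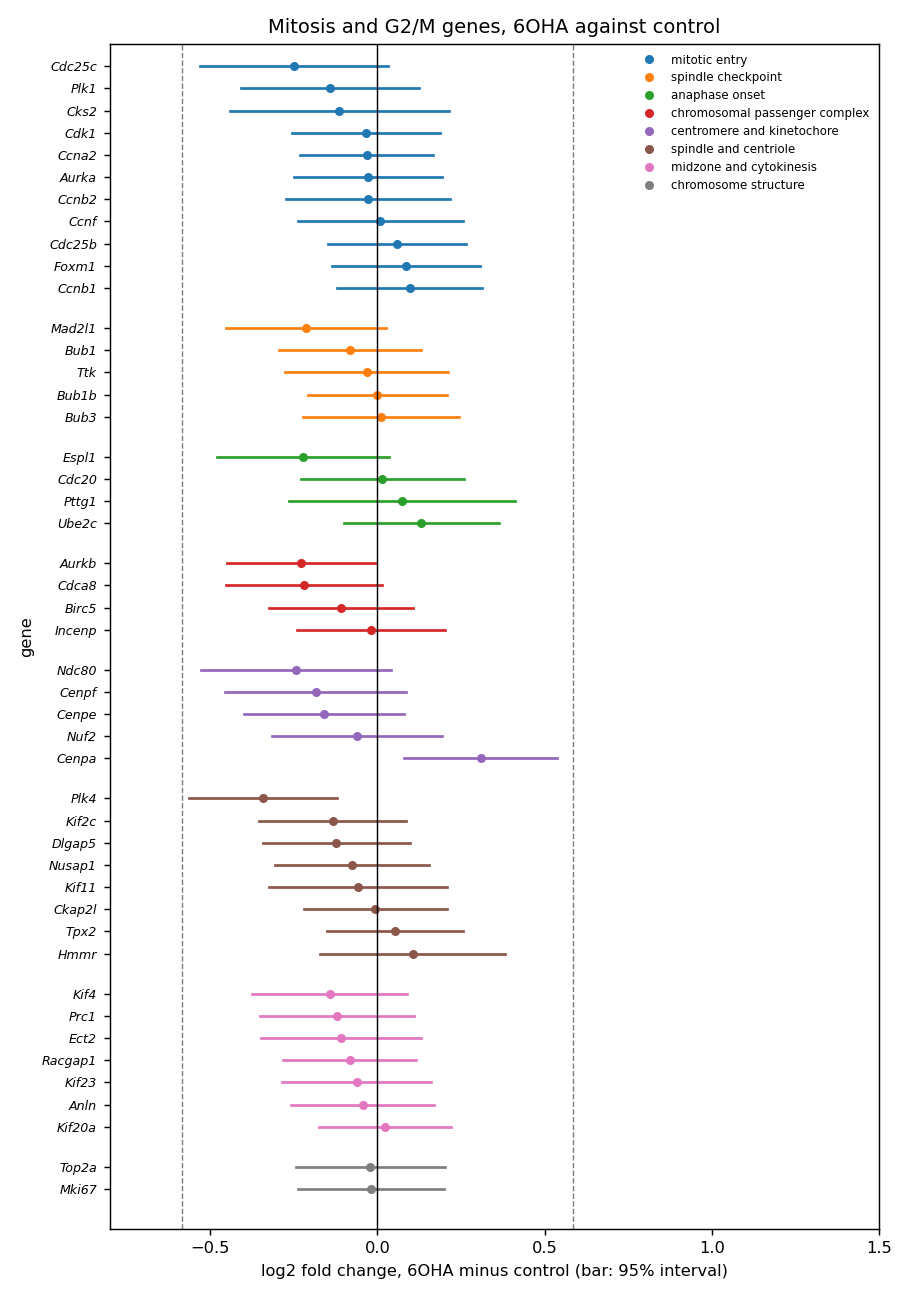
Log2 fold change, 6OHA minus control (horizontal axis), of each of the 46 genes (vertical axis), coloured by role, with its 95% interval as a bar and 1.5-fold in either direction as dashed lines. No bar reaches a dashed line, and 3 bars, those of Cenpa, Plk4 and Aurkb, do not cross 0.

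Of the 11 genes of mitotic entry, 0 passed, with a median log2 fold change of -0.03, and the groups overlapped for 10. Cdk1, the kinase that drives mitosis, was at 62.4 and 59.7 CPM in 6OHA and 59.9 and 65.2 CPM in control, a fold of 0.976 with a 95% interval from 0.838 to 1.14. Cyclin gene Ccna2 was at 154 and 150 CPM in 6OHA and 160 and 151 CPM in control. The B-type cyclin gene Ccnb1 had a log2 fold change of 0.10 (SE 0.10) and Ccnb2 of -0.03 (SE 0.11). Groups of both overlapped. The most abundant gene of this set per length, the phosphatase gene Cdc25b, was at 173 and 181 CPM in 6OHA and 162 and 178 CPM in control. Its log2 fold change of 0.06 (SE 0.09, edgeR adjusted p = 0.928) became -0.0087 without control replicate 1. Its relative Cdc25c was at 20.8 and 17.7 CPM in 6OHA and 23.5 and 22.1 CPM in control, below both controls without passing (log2 fold change -0.25, SE 0.13, edgeR adjusted p = 0.536). Foxm1, the transcription factor gene of the G2/M program, was at 0.09 (SE 0.10) on the log2 scale and the kinase genes Plk1 and Aurka at -0.14 (SE 0.12) and -0.03 (SE 0.10). Ccnf, for a cyclin that directs ubiquitination, was at 0.01 (SE 0.11) and Cks2, for a CDK-binding subunit, at -0.11 (SE 0.15). Of the 31-base stretches in their transcripts, 27.7% for Ccnb1, 31.7% for Cks2 and 14.8% for Plk1 also occur in other annotated genes, the most often matched being Ccnb1-ps, Gm15452 and Plk-ps1, so the counts of these genes are uncertain.

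Of the 5 spindle checkpoint genes, 0 passed, and the median log2 fold change was -0.03. The checkpoint kinase genes Bub1 and Ttk were at -0.08 (SE 0.10) and -0.03 (SE 0.11), and Bub1b, for a subunit that binds CDC20, was at 84.8 and 81.7 CPM in 6OHA and 85.2 and 81.2 CPM in control. Bub3, whose product recruits that of Bub1 to kinetochores, was at 110 and 116 CPM in 6OHA and 103 and 121 CPM in control, so the controls lay outside the treated libraries on either side. The sign of its log2 fold change of 0.01 depended on the scaling and on the library left out. Mad2l1, which encodes the checkpoint protein that sequesters CDC20, was at 62.7 and 61.8 CPM in 6OHA and 78.1 and 66.1 CPM in control. It lay below both controls, by less than the distance between the controls (log2 fold change -0.21, SE 0.11, edgeR adjusted p = 0.532).

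The 4 genes of the anaphase trigger went different ways, and 0 passed. Ube2c (Entrez gene 68612, chromosome 2 from 164769929 to 164772902), the ubiquitin-conjugating enzyme of the anaphase-promoting complex, was at 55.3 and 54.1 CPM in 6OHA and 46.8 and 53.1 CPM in control. The treated libraries lay above both controls, but control replicate 2 was closer to them than to control replicate 1 (log2 fold change 0.13, SE 0.11, edgeR adjusted p = 0.787). Espl1 (105988, chromosome 15 from 102296254 to 102324357), which encodes the protease separase that cuts cohesin, was at 42.6 and 52.0 CPM in 6OHA and 54.4 and 56.0 CPM in control. The treated libraries were lower, and 6OHA replicate 3 lay nearer the controls than its own replicate (log2 fold change -0.22, SE 0.12, edgeR adjusted p = 0.552). Cdc20, with 25.5% of its 31-base stretches shared with other genes, was at 0.02 (SE 0.11) on the log2 scale. Pttg1, which encodes the separase inhibitor securin, was at 0.07 (SE 0.15).

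For each of the 4 chromosomal passenger genes the estimate was negative (median log2 fold change -0.16), and 0 passed. The complex corrects faulty attachments and then directs cytokinesis. Its kinase gene Aurkb (20877, chromosome 11 from 69045624 to 69051664) was at 42.2 and 44.3 CPM in 6OHA and 50.5 and 50.9 CPM in control. The groups were separated by more than either spread, with a fold of 0.854 and an interval from 0.732 to 0.995, and the unadjusted p was 0.0436 (edgeR, adjusted p = 0.433). Cdca8, which encodes borealin, was at 51.4 and 49.3 CPM in 6OHA and 62.3 and 54.9 CPM in control. Birc5, which encodes survivin, was at 64.6 and 66.9 CPM in 6OHA and 68.6 and 73.3 CPM in control. Both lay below the controls by log2 differences of -0.22 (SE 0.11) and -0.11 (SE 0.10). The scaffold gene Incenp overlapped at -0.02 (SE 0.10).

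Of the 5 centromere and kinetochore genes, 0 passed, and Cenpa differed in sign from the other 4. Cenpa (12615, chromosome 5 from 30666877 to 30674837) encodes the histone H3 variant that marks centromeres. It was at 49.2 and 50.9 CPM in 6OHA and 38.6 and 42.2 CPM in control, the largest positive difference of the 46 genes. The groups did not overlap, with a fold of 1.24 and an interval from 1.06 to 1.45 (edgeR unadjusted p = 0.0131, adjusted p = 0.241). Ndc80 (67052), which encodes the outer kinetochore protein that holds microtubules, was at 43.2 and 40.4 CPM in 6OHA and 55.5 and 43.3 CPM in control. Its lower mean in 6OHA came with a wide spread of the controls (log2 fold change -0.24, SE 0.13, edgeR adjusted p = 0.559), and it stood at -0.05 without control replicate 1 and -0.41 without control replicate 2. Nuf2, its partner, was at -0.06 (SE 0.11), the kinetochore motor gene Cenpe at -0.16 (SE 0.11) and Cenpf at -0.18 (SE 0.12).

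Of the 8 spindle and centriole genes, 0 passed, with a median of -0.07. Plk4 (20873, chromosome 3 from 40799951 to 40816883) was at 37.5 and 37.4 CPM in 6OHA and 47.5 and 47.4 CPM in control, the largest negative difference of the 46. The libraries of each group were nearly equal, and the fold was 0.789 with an interval from 0.677 to 0.920 (edgeR unadjusted p = 0.00617, adjusted p = 0.157). With a smooth offset for GC content in each library, Plk4 and Cenpa did pass, at adjusted p = 0.0339 and 0.0329, in an edgeR fit that called 5.93% of 13664 genes and takes no account of estimating the offset. In the other alternatives the adjusted p of Plk4 was at least 0.120 and that of Cenpa at least 0.0946. The spindle assembly factor gene Tpx2 was at 132 and 123 CPM in 6OHA and 125 and 121 CPM in control. Hmmr, which encodes a spindle-associated protein, was at 62.2 and 59.5 CPM in 6OHA and 63.6 and 49.3 CPM in control, both controls lying outside the treated pair. Its log2 fold change of 0.11 (SE 0.13) became -0.06 without control replicate 2. The rest of this set, with the motor gene Kif11 and the depolymerase gene Kif2c, lay between -0.13 for Kif2c and -0.0064 for Ckap2l on the log2 scale, and the treated libraries lay below both controls for Kif2c and Dlgap5. Of the 31-base stretches in the transcripts, between 6.06% and 7.86% of those for Plk4, Kif11, Racgap1, Ube2c and Ndc80 also occur in other genes.

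Of the 7 genes of the spindle midzone and cytokinesis, 0 passed, with a median of -0.08. Racgap1, whose product forms the centralspindlin complex with that of Kif23, was at 119 and 116 CPM in 6OHA and 126 and 123 CPM in control. The treated libraries lay below both controls by a small margin (fold 0.944, interval from 0.823 to 1.08). The chromosome motor gene Kif4 was at 35.0 and 34.6 CPM in 6OHA and 39.6 and 37.1 CPM in control, also lower without passing (log2 fold change -0.14, SE 0.10, edgeR adjusted p = 0.755). The midzone motor gene Kif20a was at 124 and 120 CPM in 6OHA and 120 and 120 CPM in control. Prc1, which bundles midzone microtubules, Ect2, which activates RhoA, and Anln, a scaffold of the contractile ring, were at -0.12, -0.11 and -0.04 on the log2 scale, and their groups overlapped.

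The genes were also split by the presence of a CHR core in the promoter window. The 29 genes with a core had a median log2 fold change of -0.03, the 9 without had -0.11, and the 8 with no window had -0.03. The genes without one were Ccnb1, Cks2, Mad2l1, Pttg1, Birc5, Cenpe, Nuf2, Nusap1 and Plk4, and the difference was not tested.

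Libraries of the same group often differed more for these genes than the groups did. The distance between the controls was larger than the distance between groups for 33 of the 46 genes, and that between the treated libraries for 22. A distance between single libraries tends to exceed one between group averages even where groups do not differ. The same share over all tested genes was not computed, so these counts are not a result about the mitosis genes. The log2 difference of control replicate 1 minus replicate 2 ran from -0.25 for Pttg1 to 0.37 for Hmmr. It went with the GC content of the transcripts, with a Pearson r of -0.70 and a Spearman rho of -0.73 across the 46 genes, which share their libraries and are not replicates. For 6OHA replicate 1 minus replicate 3 these were -0.51 and -0.50. For 6OHA minus control they were 0.19 and 0.20. Over the tested genes with a GC value and a mean log2 CPM above 0, replicate 1 of each group had lower values for GC-rich transcripts, with slopes of -0.08 for 6OHA replicate 1, 0.08 for 6OHA replicate 3, -0.12 for control replicate 1 and 0.13 for control replicate 2, as log2 per 10 points of GC content. The mitosis genes had a median GC content of 47.4%, from 39.8% for Bub1 to 56.3% for Plk1, against 50.4% for all tested genes. In the fit with a GC offset the median log2 fold change of the 46 genes was -0.04.

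**Figure D4:**
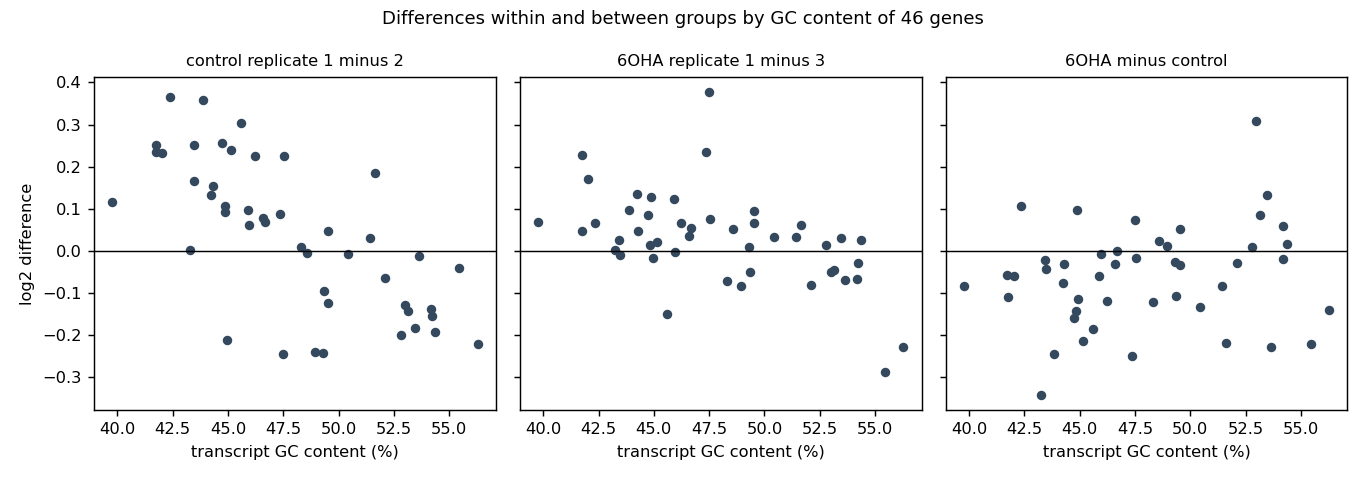
Log2 difference (vertical axis) against transcript GC content (horizontal axis, percent) of the 46 genes, 1 point per gene, for control replicate 1 minus 2, 6OHA replicate 1 minus 3 and 6OHA minus control. The first panel slopes down most steeply, with r of -0.70, and the panel between groups has r of 0.19.

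Other genes of mitosis, in 6 lists set by function, held 1 called gene. Of 131 tested among 132 listed, 0 rose and 1 fell, with a median log2 fold change of -0.09. Over all tested genes 1.39% rose and 0.629% fell, so 1 fall among 131 is near that share. The gene that fell was Cdkn3, which encodes a phosphatase that removes the activating phosphate of CDKs. It was at 14.4 and 10.7 CPM in 6OHA and 20.2 and 20.6 CPM in control, a fold of 0.614 (log2 fold change -0.70, SE 0.15, edgeR adjusted p = 0.0423). Both treated libraries were lower, but they differed from each other, and the edgeR adjusted p was 0.396 without 6OHA replicate 3 and 0.0612 without control replicate 1. Its call held in 7 of 14 alternatives, with adjusted p from 0.00200 to 0.396. The list medians were -0.15 for other kinetochore genes, -0.09 for other spindle and cytokinesis genes, -0.10 for other kinases and regulators, 0.01 for the anaphase-promoting complex and cohesin, -0.19 for condensin and -0.12 for the MuvB, MYB and E2F regulators. Among the last, the E2F repressor gene E2f8 was at -0.37 (SE 0.10, edgeR adjusted p = 0.132) and the B-MYB gene Mybl2 at -0.25 (SE 0.16, edgeR adjusted p = 0.682).

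The S phase list lay lower than the mitosis genes. Of its 50 genes, 0 rose and 4 fell, where 0.629% of all tested genes fell. The median log2 fold change was -0.26, and 49 were below 0, where 51.4% of all tested genes were. The treated libraries lay below both controls for 37, or 74%, where 20.1% of all tested genes did so. For the 46 mitosis genes the median was -0.05, with 34 below 0 and 12 below both controls. The difference between the lists was not tested. Uhrf1, which maintains DNA methylation at replication forks, was at 71.5 and 76.9 CPM in 6OHA and 106 and 115 CPM in control (log2 fold change -0.57, SE 0.10, edgeR adjusted p = 0.0121). Dtl, which targets the licensing factor CDT1 for destruction, was at 29.5 and 27.1 CPM in 6OHA and 45.6 and 40.8 CPM in control (log2 fold change -0.61, SE 0.11, edgeR adjusted p = 0.0185). Treated and untreated libraries were apart for both. The other called genes, Rrm2 and Cdc6, are named after their values were seen. Calls held in 12 of 14 alternatives for Uhrf1, 9 for Dtl, 8 for Rrm2 and 8 for Cdc6, and with no filter the 4 genes did not pass. Without 6OHA replicate 3 the edgeR adjusted p was 0.146 for Dtl, 0.388 for Rrm2 and 0.130 for Cdc6, without 6OHA replicate 1 it was 0.109 for Uhrf1 and 0.185 for Cdc6, and without control replicate 1 it was 0.0668 for Rrm2.

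**Figure D5:**
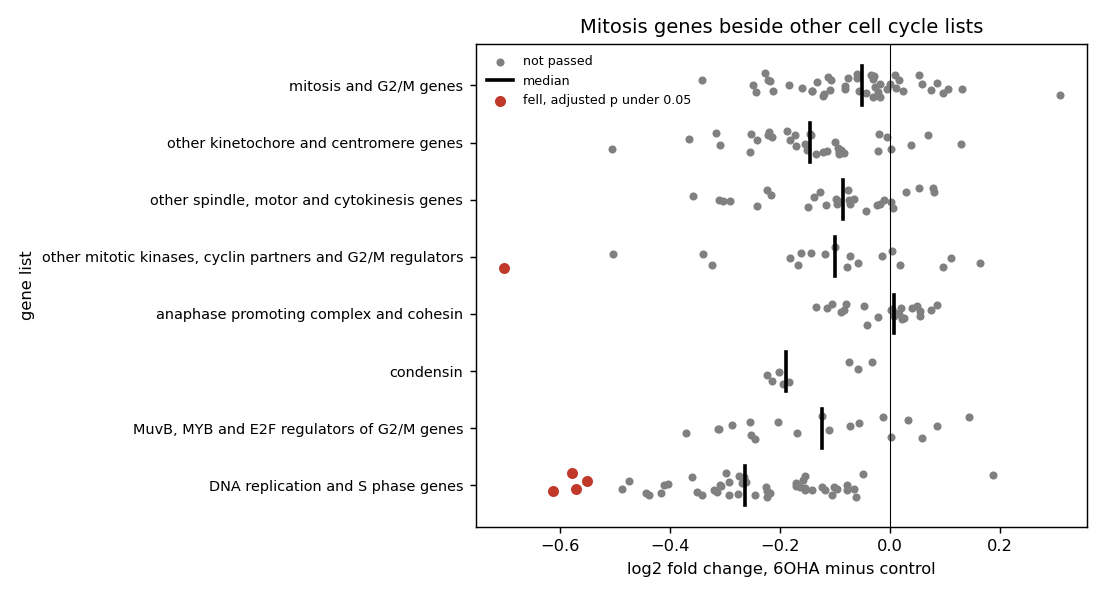
Log2 fold change, 6OHA minus control (horizontal axis), of each tested gene in the mitosis set and in 7 further cell cycle lists (vertical axis), with list medians as black bars and genes that fell in red. The mitosis genes sit around a median of -0.05 with none called, and the S phase genes around -0.26 with 4 called.

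Of 10 microglia markers, the fractalkine receptor gene Cx3cr1 fell (log2 fold change -0.81, SE 0.11, edgeR adjusted p = 0.00257) and 9 did not pass. Summed over the tested markers of a list, the 3 of 8 astrocyte genes came to 15.1 and 16.7 CPM in 6OHA and 22.6 and 23.3 CPM in control, and the 3 of 6 neuronal genes to 19.3 and 19.1 CPM in 6OHA and 25.0 CPM or more in control. Of these, Map2, a neuronal microtubule gene, fell (log2 fold change -0.76, SE 0.15, edgeR adjusted p = 0.0273), a call held in 7 of 14 alternatives but not without 6OHA replicate 1 (edgeR adjusted p = 0.132), 6OHA replicate 3 (0.0616) or control replicate 1 (0.0590). The 4 of 6 oligodendrocyte genes, of which Mbp was the most abundant at 77.5 CPM or more in every library, came to 125 and 132 against 109 and 110 CPM, and the 3 of 8 endothelial and fibroblast genes, chiefly Kdr, to 215 and 215 against 259 and 235 CPM, with Cldn5, Col3a1, Dcn and Pdgfrb at 0 counts throughout. The part of these markers in the mitosis values was not tested.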

How the data were processed

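Per the labels' protocols, total RNA came from RNAiso Plus, and the TruSeq kit used keeps poly-A RNA and marks strand. Per the submitters' processing notes the build was mm10 and the tools named were StringTie 2.1.3b, HISAT2 2.1.0, SAMtools 1.9, Bowtie2, Trimmomatic 0.38 and bcl2fastq 2.20.0. Their roles, the counting rule and the use of strand are not given in the sources used here, so reads of overlapping antisense genes may be mixed. The read count values were deposited by the authors without normalization, per the file headers. FPKM and TPM values were deposited beside them, scaled by the authors for length and library size. There were 2 libraries in each group. Bexarotene, which the labels also name, was not analysed here.

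Low genes were removed by filterByExpr, and the rest scaled by TMM (factors 0.990 to 1.01) and tested with the quasi-likelihood test of edgeR 4.0.16 (legacy mode off), group being the only term, at a Benjamini-Hochberg adjusted p under 0.05 over all 14634 tested genes. Of these, 203 rose and 92 fell. CPM uses the tested genes. Intervals are 95% and use the test's degrees of freedom. Replicates were not copies of each other: chi-square over its degrees of freedom was 10.9 for the 6OHA pair and 22.9 for the control pair. GC content came from GENCODE M21 transcripts, for 93.4% of tested genes, and shared sequence from their 31-base stretches. Alternatives used DESeq2 1.42.0, limma 3.58.1, other scalings and filters, FPKM and TPM on the log2 scale with 1 or 0.1 added, a loess GC offset and leaving out each library. R 4.3.3 and Python 3.11.15 with scipy 1.17.1 ran the steps, and the fit was tested on simulated data.

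The members, lists and alternatives were chosen with earlier results of these data known. Genes given with values in every library are the member with the smallest p and the one with the highest mean TPM of each role, the 3 largest positive and negative differences, up to 2 called genes of each other list, and some that complete a complex or pathway, chosen after their values were seen.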

Additional observations from a re-analysis of the deposited data

How the results depend on the processing

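Across 14 alternatives, the fit with a GC offset called 2 of the 46 mitosis genes and the other 13 called 0. The 2 were Cenpa (log2 fold change 0.30) and Plk4 (-0.33). The median log2 fold change of the 46 genes ran from -0.10 to -0.02 with a library left out, and from -0.09 to -0.04 otherwise. On log2(FPKM + 1) it was -0.085, where the median over all tested genes was -0.041. On log2(FPKM + 0.1) it was -0.089, where the median over all tested genes was -0.056. The number of all genes called was 295, and it was 120 with no filter, 135 on log2(FPKM + 1), 149 on log2(FPKM + 0.1), 152 on log2(TPM + 1) and 810 with the GC offset; leaving out a library gave 265 to 501, the most without control replicate 2. Of the calls, 68.8% rose; this share was 59.4% with the GC offset, 62.9% to 71.3% with a library left out, 66.8% to 71.4% under the other scalings, tests and filter on counts, 96 of 120 calls with no filter, 73.2% and 74.8% on FPKM with 0.1 and 1 added, and 78.9% on log2(TPM + 1). Groups did not overlap for 14 of the 46 genes, beside 38.8% of all tested genes. The count was 28 with the GC offset (21 lower, 7 higher) and 20 on both FPKM scales (19 lower, 1 higher). With a library left out it was 22 to 39, where fewer libraries make separation easier. The share over all tested genes was not computed for these alternatives, so their counts cannot be read as particular to the mitosis genes. The count was not recomputed for DESeq2 and limma-voom, which do not give library values of their own. Of the 16 mitosis genes given by rule, 213 of the refitted values kept direction and side of the threshold, 2 passed with the GC offset and 9 changed sign, none of them called. Bub3 changed to -0.0028 under upper-quartile scaling, -0.039 on log2(FPKM + 1), -0.0396 on log2(FPKM + 0.1), -0.00018 on log2(TPM + 1), and ran from -0.104 without control replicate 1 to 0.135 without control replicate 2, being -0.0282 without 6OHA replicate 3. Over the same omissions Cdc25b ran from -0.0087 to 0.128, Top2a from -0.142 to 0.111 and Hmmr from -0.0642 to 0.304, the other sign coming without control replicate 1 for Cdc25b and Top2a and without control replicate 2 for Hmmr. The causes were not tested. Where an omission left a group with 1 library, its spread was taken from the other group. No paired analysis was possible because the groups share only the replicate number 1. With 2 libraries a group, the intervals of single genes, with half-widths of 0.20 to 0.34 on the log2 scale, limit what can be said of smaller differences.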
